A study of Trichoderma reesei with 12 samples.

Results

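The light response of the parent strain was read from 6 RNA-seq libraries of the filamentous fungus Trichoderma reesei, 3 kept in constant light (titled ku80_LL) and 3 kept in constant darkness (titled ku80_DD). They are 6 of the 12 libraries of the series and were chosen by their sample titles, with all 10879 gene models of the count table. All 6 come from strain QM6a-delta-ku80, labelled WT, in which ku80 is deleted. This gene serves non-homologous end joining, and its loss makes targeted gene replacement more efficient. Light and dark libraries share that deletion, and the labels do not say how many independent transformants it rests on. Mycelium was grown in minimal medium with cellulose at 28 °C for 96 h. The other 6 libraries, used below for comparison only, come from QM6a-delta-ku80-delta-tmk3, which also lacks the mitogen-activated protein kinase gene tmk3, in constant light (3) and constant darkness (3). The labels do not say that replicates were separate cultures, so the p-values given here rest on a spread that may be technical.

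Filamentous ascomycetes sense blue light mainly through a pair of White Collar-type proteins, called BLR1 and BLR2 in T. reesei, which act as a photoreceptor complex and transcription factor, with the small photoreceptor ENV1 adjusting the response. Light in this fungus is known to act on sporulation, on secondary metabolism and on the expression of cellulase genes, so growth on cellulose under light and darkness is a common comparison. None of these genes can be pointed to here: the count table names its gene models by one of 7 letters, a number that runs along each letter and a final W or C. In all, 0 of the 10879 identifiers matched the reference gene table. The file pairs no identifier with a gene name, so genes are described below by level, size of change and position.

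Only 3 rows carry gene names, and they are the genes of the mating-type locus MAT1-1. Strain QM6a is of the opposite mating type, MAT1-2. The gene mat1-1-1 had 1, 0 and 2 counts in the light libraries, against 0, 0 and 1 in the dark libraries. For mat1-1-2 and mat1-1-3 the count was 0 in all of them. Levels are given as CPM, read counts scaled to a common library size, and in the shallowest of the 6 libraries a level of up to 0.228 CPM could go with a count of 0, by counting error alone.

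The 6 libraries held between 13180278 and 17702344 counts. Light and dark libraries lay apart on the first principal component (79.6% of the variance). The second (14.4%) spread the dark libraries, between -56.31 for replicate 2 and 50.02 for replicate 3. The coefficient of variation between replicates was 0.174 in light and 0.401 in darkness, and 0.232 in darkness without replicate 2. That library also had the lowest TMM scaling factor, 0.819, where TMM is edgeR's scaling of libraries by their composition. A second library stood apart in a narrower way, light replicate 2, which held more than the other light libraries of the transcripts that were high in darkness. Results are given with and without these libraries where they move.

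Many transcripts differed between light and darkness, and the losses were larger than the gains. Of 8548 gene models with enough counts to test, 2957 were called at an adjusted p below 0.05 by edgeR's quasi-likelihood F test with Benjamini-Hochberg adjustment, which is 34.6% of them. Levels of 1305 genes rose in light (15.3%) and those of 1652 fell (19.3%). Changes of at least 2-fold were seen for 756 that rose (8.84%) and 1285 that fell (15.0%). The median log2 fold change, light over darkness, was -0.03 over all genes tested, 1.12 over those that rose and -1.93 over those that fell. In bulk RNA a change in the share of cells that express a gene and a change in RNA per cell cannot be told apart.

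Small changes were more often rises and large ones more often falls. Under 2-fold, 549 genes rose and 367 fell. Between 2- and 4-fold, 475 rose and 489 fell, and without light replicate 2 it was 440 and 332. Between 4- and 16-fold, 200 rose and 451 fell. At 16-fold or more, 81 rose and 345 fell. The 3 light libraries lay above all 3 dark libraries for each of the 1305 genes that rose, and below all of them for 1644 of the 1652 that fell. Over all genes tested, 2238 lay above and 2252 below without overlap. The lowest light library was at least 4 times the highest dark library for 176 genes that rose, and the lowest dark library at least 4 times the highest light library for 476 that fell. For 28 of the 345 and 9 of the 81 the lower group held 0 counts, so the fold changes fitted for them follow from the model's prior count and are not measured sizes.

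**Figure D1:**
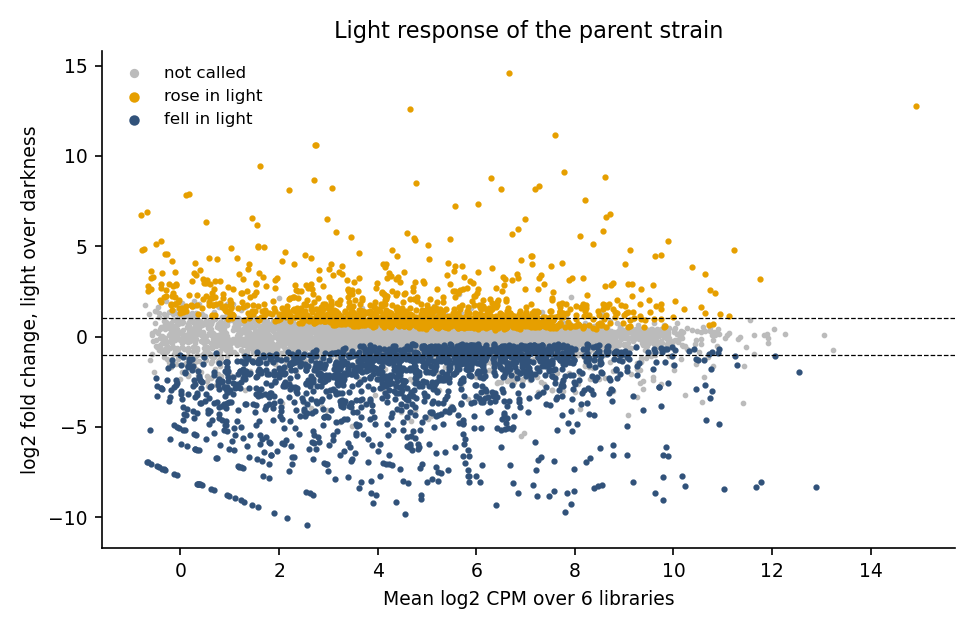
The log2 fold change of light over darkness in the parent strain (vertical axis) is plotted against the mean log2 CPM over 6 libraries (horizontal axis), with 1 point for each of 8548 gene models and dashed lines at a 2-fold change. The 1652 genes that fell spread further from 0 than the 1305 that rose, and the straight line of points at the lower left is made of genes with 0 counts in light.

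The number of calls depended on single libraries, more than their direction did. It was 1824 without light replicate 1 and 1730 without light replicate 3, and 3816 (44.1%) without dark replicate 2. Rises alone numbered 815 without dark replicate 1. The balance of rises and falls depended on scaling: by total count 1257 rose and 1306 fell, and by at least 2-fold 888 and 1151. With limma voom, which weights libraries by their quality, 5079 were called, and dark replicate 2 received the lowest weight, 0.147. Tested directly against a 2-fold change, which asks for more than a fitted change of that size, 341 rose and 791 fell.

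Among the genes tested, changes of at least 2-fold were more frequent for transcripts with few reads. The genes were divided into 4 equal groups by mean CPM, which is not corrected for gene length. In the lowest group 14.2% rose and 23.7% fell by at least 2-fold, against 6.69% and 11.1% in the highest group. Falls outnumbered rises in each of the 4. In the highest group 54 genes fell and 25 rose by at least 16-fold. A gene with a low mean could pass the filter by its counts in light alone or in darkness alone. Such genes differ between the conditions by the way they were admitted. The higher shares in the lowest group may thus follow in part from the filter, and the size of that part was not tested.

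The most abundant transcripts were in part different ones in light and in darkness. By share of reads, without correction for length, the 100 highest gene models in light and the 100 highest in darkness had 50 in common. Of these 50, 38 were not called. Of the 50 found only in the light list, 31 rose and 0 fell. Of the 50 found only in the dark list, 0 rose and 33 fell. The lists were made from the same libraries as the test, so these directions follow in part from how the lists were drawn.

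TrE0391W held the largest share of counts in light. It took 6.13%, 6.27% and 7.14% of all counts in the light libraries, against 0.000334%, 0.000871% and 0.00139% in the dark libraries. In raw reads this was 1085926, 890211 and 941087 counts in light, against 52, 139 and 193 in darkness. Its level was 62016 ± 6199 CPM in light and 9.05 ± 5.10 CPM in darkness (SD, n = 3 each), which is a change of 12.74 on the log2 scale (SE 0.76, edgeR adjusted p = 0.000132), and 12.88 without dark replicate 2. The lowest light library was 4365 times the highest dark library. This was the widest gap among the genes that rose when 1 CPM was added to both sides. The share of counts taken by the 100 highest gene models was 27.6% ± 0.674 in light and 26.5% ± 2.03 in darkness (two-sided exact permutation test, p = 0.5). With TrE0391W set aside it was 22.6% ± 0.383 in light and 26.5% ± 2.03 in darkness (two-sided exact permutation test, p = 0.1, the smallest that 3 against 3 libraries allow).

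TrD1022C had the next widest separation among genes that rose. It had 8150, 5494 and 4968 counts in the light libraries, against 1, 2 and 4 in the dark libraries. All 3 light libraries lay between 355 and 446 CPM, and the dark libraries were near the limit of detection. On the log2 scale it rose by 11.15 (SE 0.40, edgeR adjusted p = 5.37e-05), with 11.13 when dark replicate 2 was left out and 11.74 when dark replicate 3 was.

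TrC1166C held the largest share of counts over the dark libraries together and fell in light. Its share was 1.35%, 1.31% and 1.71% in the single dark libraries, and it came first only in replicate 3. Other gene models came first in dark replicate 1 (1.59%) and dark replicate 2 (1.44%). TrC1166C had 14.6, 114 and 14.2 CPM in the light libraries, against 13529, 15999 and 16173 CPM in the dark libraries. Light replicates 1 and 3 were alike, and replicate 2 was well above both while far below every dark library. Its log2 fold change was -8.32 (SE 1.11, edgeR adjusted p = 0.00214). Without light replicate 2 it was -10.04 (SE 0.34, edgeR adjusted p = 0.000468).

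TrD0360W was the other widely separated gene that fell. It had 8.38, 20.3 and 6.53 CPM in light, against 2991, 7159 and 2256 CPM in darkness. Here both libraries named above stood out, light replicate 2 as the highest in light and dark replicate 2 as the highest in darkness. Its fold change on the log2 scale was -8.46 (SE 0.79, edgeR adjusted p = 0.000599), -7.80 without dark replicate 2 and -9.10 without light replicate 2.

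**Figure D2:**
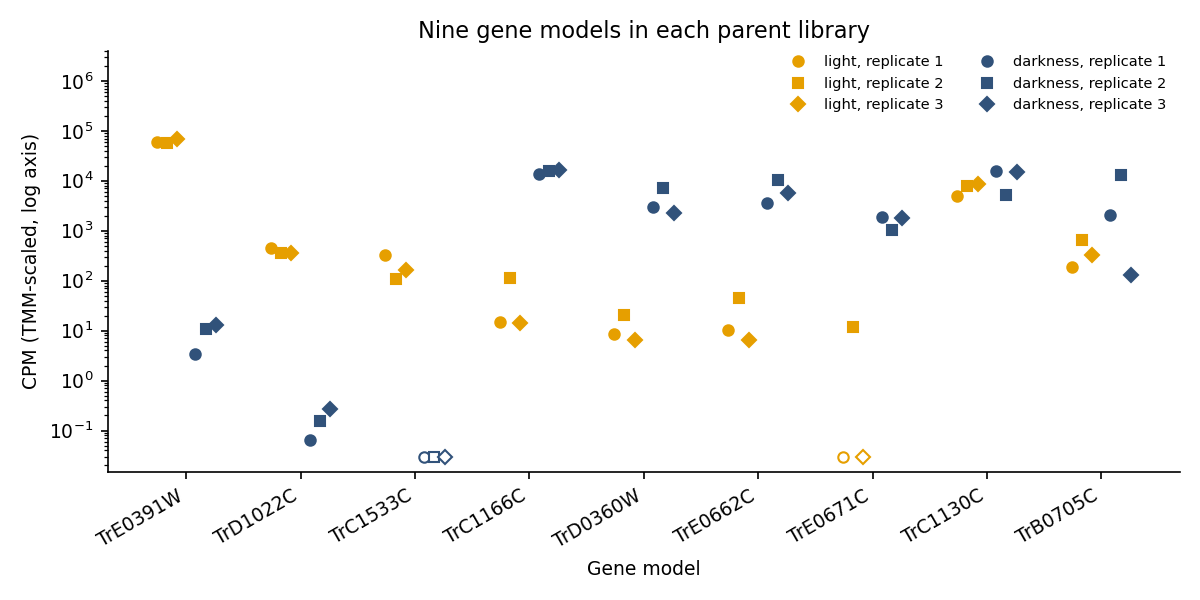
Levels of 9 gene models in CPM on a log axis, with light libraries in orange left of dark libraries in blue and a symbol for each replicate; open symbols mark 0 counts and are drawn below the lowest measured level. TrE0391W, TrD1022C and TrC1533C are higher in every light library, TrC1166C to TrE0671C lower in every light library, and TrC1130C and TrB0705C overlap between the conditions.

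A few transcripts were seen in 1 condition almost alone. Genes were counted here when every library of one condition held at least 5 CPM and the other condition held at most 3 counts in all. There were 6 such genes in light and 12 in darkness. The 6 light genes held 8385, 3136 and 3547 counts in the light libraries, against 1, 0 and 2 in the dark libraries. TrC1533C, singled out after its values were seen, had 6038, 1695 and 2251 counts in light, against 0 in every dark library. Its level in light was at least 3038-fold higher by group totals, taking 3 counts over the dark group as the floor. The 12 darkness genes held 0, 22 and 1 counts in the light libraries, against 3927, 2509 and 4624 in the dark libraries. Nearly all of what was left in light thus lay in light replicate 2. Without that library 42 genes met the rule for darkness, and without dark replicate 2 there were 19. Leaving out any library makes the same limits easier to meet. No other library was left out here, so how far the number 12 depends on these in particular was not tested. The number for light was 7 in both cases.

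The same pattern in light replicate 2 was seen for most of the large falls. Among 51 genes that fell by at least 16-fold and held at least 100 CPM in every dark library, replicate 2 was the highest light library for 48. Over all genes tested it was the highest for 40.2%. The median level of the 51 genes in light was 0.656% of the dark mean in replicate 1, 1.51% in replicate 2 and 0.861% in replicate 3. In replicates 1 and 3, 21 and 19 of them lay below 0.5% of the dark mean, and in replicate 2 only 3 did. The excess of replicate 2 over the mean of the other light libraries was 0.796% of the dark mean at the median (quartiles 0.591% and 1.42%). Over all 345 genes that fell by at least 16-fold, replicate 2 was the highest light library for 225. The excess there was 0.851% at the median (quartiles 0% and 1.89%) and above 0 for 253. All 51 were called without replicate 2 as well, with a median log2 fold change of -6.97 in place of -6.60. The part of this excess in the smaller falls was not tested.

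Dark replicate 2 was more than 4 times the mean of the other dark libraries for 322 genes and more than 4 times below it for 11, with 0.5 CPM added to both sides. For light replicate 2 against the other light libraries the numbers were 30 and 7. Of the 322, 75 fell in light, 1 rose and 246 were not called. The other dark libraries differed by more than 4-fold from each other for 97 genes, and light replicates 1 and 3 for 5. Among the 345 genes that fell by at least 16-fold, dark replicate 2 was the highest dark library for 38.3% and the lowest for 52.2%, against 36.3% and 50.7% of all genes tested.

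Leaving out dark replicate 2 added calls and took away few. Of the 2957 genes called with all 6 libraries, 2892 (97.8%) were called without it, all in the same direction, and they made up 75.8% of the 3816. Another 65 were lost and 924 were gained, of which 433 rose and 491 fell. Most of the gains were under 2-fold, with a median size of 0.69 on the log2 scale over all of them, and 251 reached 2-fold. The share that rose by at least 2-fold was 9.17% of 8656 genes tested and the share that fell was 16.0%. The fold change moved by more than 1.5 times for 167 of the genes that fell by at least 2-fold and for 33 of those that rose.

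TrC1130C and TrB0705C, both singled out after their values were seen, show the opposite ways in which the library counted. TrC1130C had 4865, 7789 and 8721 CPM in light, against 16013, 5252 and 15167 CPM in darkness. Only dark replicate 2 overlapped with light. The log2 fold change was -0.77 (SE 0.46, edgeR adjusted p = 0.232) with all libraries and -1.13 (SE 0.24, edgeR adjusted p = 0.0081) without dark replicate 2. With limma voom and library weights TrC1130C was called too (adjusted p = 0.00735). TrB0705C had 188, 658 and 327 CPM in light, against 2075, 12977 and 129 CPM in darkness. The dark libraries spanned a wider range than the difference between the conditions. The log2 fold change was -3.69 (SE 1.45, edgeR adjusted p = 0.0929), and -1.49 (SE 0.97, edgeR adjusted p = 0.247) without dark replicate 2. Without dark replicate 3 it was -4.26 (SE 0.87, edgeR adjusted p = 0.0133), a call. TrB0705C was also called with all 6 libraries by DESeq2 (adjusted p = 0.0276) and by edgeR in the fit of all 12 libraries (adjusted p = 0.0393).

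**Figure D3:**
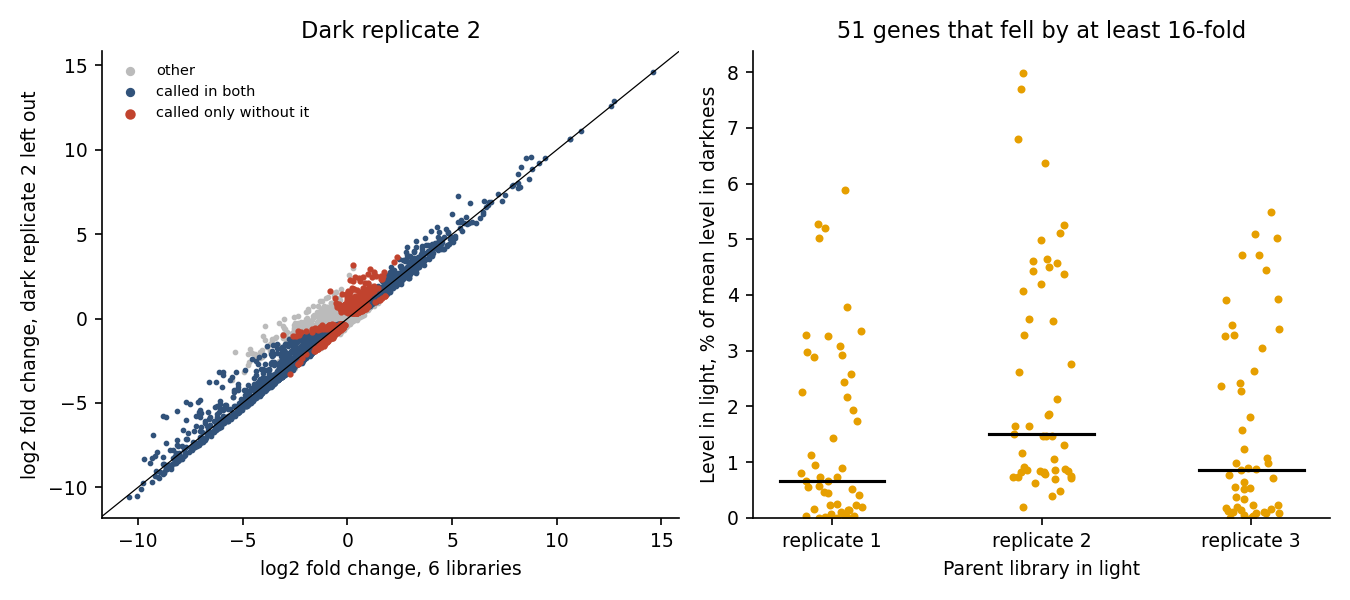
Left, log2 fold changes with dark replicate 2 left out (vertical axis) against those from all 6 libraries (horizontal axis), 1 point per gene model, with the line of equal values. Right, the level of 51 genes that fell by at least 16-fold in each light library as a percent of their mean dark level, with the median as a bar: the medians are 0.656%, 1.51% and 0.861%, and few points of replicate 2 lie below 0.5%.

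Genes that fell in light often lay next to each other. Gene models were put in order by their running number within each of the 7 letter series, on the assumption that consecutive numbers are neighbours, since the file holds no coordinates. Of the 1285 genes that fell by at least 2-fold, 55.6% had a tested neighbour that did so too, and of the 756 that rose by at least 2-fold, 35.4% had one that rose. Of all 8548 genes tested, 26.1% had a neighbour that fell by at least 2-fold and 16.6% one that rose. Runs of 5 or more consecutive tested genes could pass over numbers without a tested gene. They numbered 21 for falls, with 133 genes, and 2 for rises, with 10 genes. Without dark replicate 2 they numbered 26 for falls, with 168 genes, and 2 for rises, with 10 genes, of which only 1 run was the same. Across all pairs adjacent in the order of tested genes, whether or not their numbers were consecutive, the fold changes had a Pearson's r of 0.25 (8541 pairs). In the same order it was 0.06 for genes 5 places apart (8513 pairs) and -0.01 for those 20 places apart (8408 pairs). Genes are not independent replicates, so these values are descriptions.

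The longest run that fell held 11 tested genes, from TrE0659C to TrE0671C, with log2 fold changes between -9.73 and -4.96 and a median of -8.38. Neighbouring genes that are expressed together in filamentous fungi often belong to clusters of secondary metabolism. No member of this run has a name in the file, so its function is not given. Together the 11 genes held 69, 142 and 64.9 CPM in light, against 10826, 22513 and 11797 CPM in darkness. All 11 fell by more than 16-fold, and the run was present without dark replicate 2, with values between -8.90 and -4.23 and a median of -8.17.

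Inside the run the dark libraries followed 2 patterns. The first 8 tested genes, TrE0659C to TrE0668C, were all highest in dark replicate 2. The last 3, TrE0669C to TrE0671C, were all lowest in it. TrE0662C, singled out after its values were seen, shows the first pattern. It had 10.3, 45.4 and 6.46 CPM in light, against 3622, 10416 and 5648 CPM in darkness, and its fold change was -8.31 on the log2 scale (SE 1.05, edgeR adjusted p = 0.00168), with -9.60 when light replicate 2 was left out. TrE0659C, at the first edge, had 16.7, 24.6 and 17.0 CPM in light, against 1475, 3244 and 929 CPM in darkness, and changed by -6.60 on the log2 scale (SE 0.58, edgeR adjusted p = 0.000475), with -5.95 when dark replicate 2 was left out.

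TrE0671C, at the other edge, shows the second pattern. It had 0, 179 and 0 counts in the light libraries, against 29074, 13421 and 26661 counts in the dark libraries. All counts in light lay in replicate 2, where TrE0669C, TrE0670C and TrE0671C stood at 0.798%, 0.866% and 0.735% of their dark means. These genes are among the 51 with the median excess given above, so their shares are not independent of it. With all libraries the log2 fold change of TrE0671C was -8.67 (SE 2.07, edgeR adjusted p = 0.0191). Without light replicate 2 its level was at least 16995-fold lower in light by group totals, against a floor of 3 counts over the light group.

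The next longest run, of 10 tested genes from TrG0122W to TrG0135W, fell less steeply, with a median of -2.58 and values between -8.66 and -1.03. The lower limit was -5.84 without dark replicate 2. It held 126, 113 and 121 CPM in light, against 988, 1536 and 660 CPM in darkness. The conditions did not overlap, and light replicate 2 did not stand above the others here. Without dark replicate 2 it was the longest run, with 12 genes.

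Rises came in shorter stretches. With all 6 libraries the runs of 5 were TrC1159C to TrC1163C and TrD0612C to TrD0616W. Without dark replicate 2 TrD0616W was at 0.99 on the log2 scale, just under 2-fold, and its run had 4 genes. The genes from TrC1159C to TrC1163C held 4252, 5416 and 4800 CPM in light, against 1026, 489 and 1412 CPM in darkness, and rose by 2.01 to 4.78 on the log2 scale. At its edges TrC1159C rose by 2.24 (SE 0.38, edgeR adjusted p = 0.00523), and TrC1163C by 4.78 (SE 0.72, edgeR adjusted p = 0.00334), or by 5.76 without dark replicate 3. The genes from TrD0612C to TrD0616W held 56.9, 68.3 and 66.3 CPM in light, against 16.5, 10.6 and 17.6 CPM in darkness. TrD0612C rose by 1.51 (SE 0.27, edgeR adjusted p = 0.00613) and TrD0616W by 1.17 (SE 0.27, edgeR adjusted p = 0.016). The call of TrD0616W was lost without light replicate 1, light replicate 3 or dark replicate 1, at edgeR adjusted p of 0.068, 0.0567 and 0.0603.

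**Figure D4:**
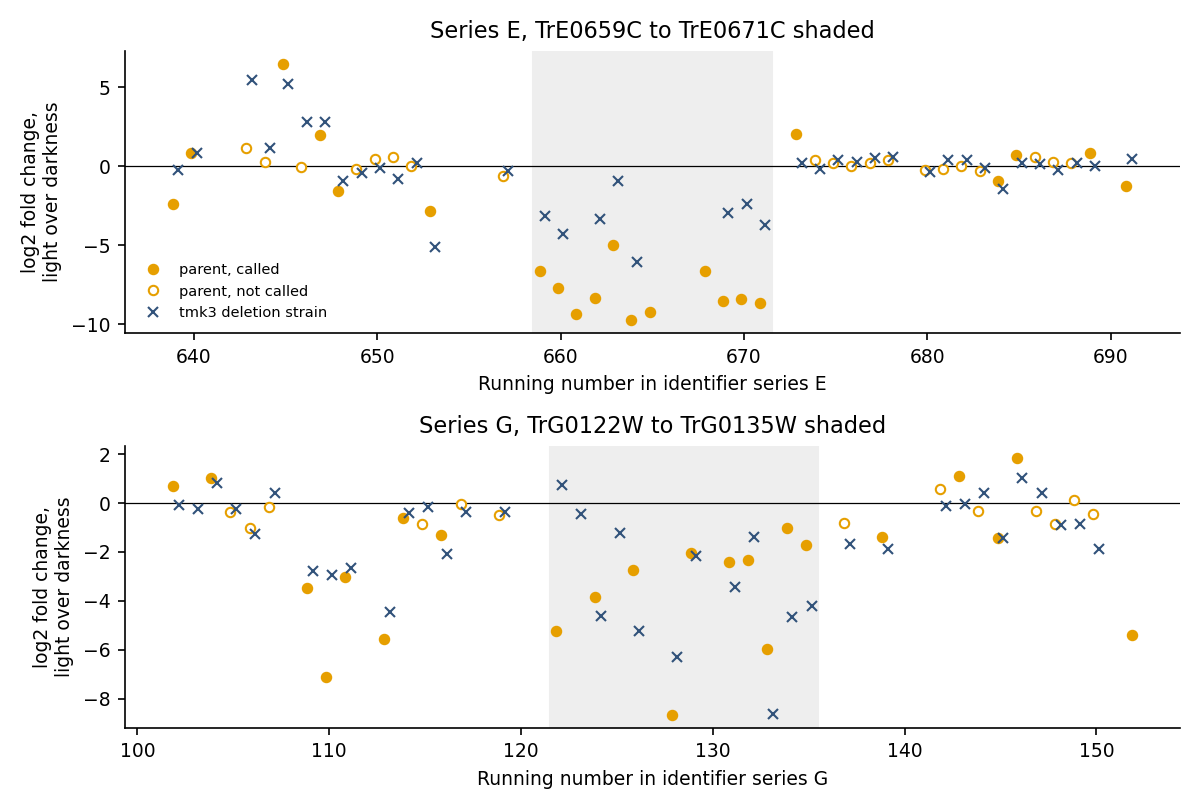
The log2 fold change of light over darkness (vertical axis) along the running numbers of identifier series E and G (horizontal axis), for the parent strain (filled where called, open where not) and the tmk3 deletion strain (crosses); shading marks the runs TrE0659C to TrE0671C and TrG0122W to TrG0135W. In series E the parent values lie between -9.73 and -4.96 inside the run and mostly near 0 just outside it.

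Neighbours were more alike when they faced away from each other. If W and C stand for the strands, a C gene followed by a W gene is a divergent pair, which shares the stretch between their start sites, and W followed by C is a convergent pair. Fold changes had a Pearson's r of 0.48 for 2093 divergent pairs with consecutive numbers, 0.23 for 2832 tandem pairs and 0.16 for 2127 convergent pairs. Without dark replicate 2 the values were 0.49, 0.24 and 0.15. In the deletion strain, whose libraries are separate from these, they were 0.53, 0.30 and 0.13. Where at least 1 gene of a pair fell by at least 2-fold, both did so in 31.1% of divergent, 20.9% of tandem and 16.4% of convergent pairs. For rises the shares were 15.1%, 12% and 7.32%. Whether reads were counted by strand is not given in the sources used here, so counts of overlapping neighbours are uncertain. The part of such overlaps in these values was not tested.

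The calls were spread over all 7 series letters. The share of tested genes that fell by at least 2-fold lay between 13.6% in series A and 17.6% in series F. The share that rose lay between 6.57% in series G and 11.2% in series F.

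The 6 libraries of the strain without tmk3 gave a comparison that shares no library with the parent. Of the genes that rose in the parent and were tested there, 830 of 1265 (65.6%) also rose without tmk3, where 25.9% of all genes tested rose. These 830 were 37.2% of the 2231 that rose in that strain. Of the genes that fell, 1146 of 1501 (76.3%) also fell, where 27.8% of all genes tested fell, and they were 47.8% of its 2398 falls. Opposite calls were made for 77 of the genes that rose in the parent and 38 of those that fell. Across 8247 genes Pearson's r of the log2 fold changes was 0.72 and Spearman's rho 0.63, and both were the same within 0.01 without dark replicate 2. The shares called in the same direction were lower without that library, 61.7% for rises and 69.8% for falls.

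The fold changes were smaller without tmk3 for most of the genes called in the parent, for 1053 of 1265 that rose and 1140 of 1501 that fell. Over the 718 genes that rose by at least 2-fold in the parent and were tested without tmk3, the median log2 fold change was 1.58 in the parent. Without tmk3 it was 0.79. Over the 1135 that fell by at least 2-fold and were tested without tmk3 it was -2.28 in the parent and -1.66 without tmk3. These genes were picked by their values in the parent, so their medians there cannot be read as an unbiased size. The difference itself was tested by the interaction, parent minus deletion strain, in a fit of all 12 libraries, and was called for 1269 of 8998 genes (14.1%). It was called for 402 of the 1303 genes that rose in the parent and had a test, with the larger response in the parent for 378. Among the 1648 that fell it was called for 438, with the larger response in the parent for 381. The parent libraries enter both the choice of these genes and the interaction. Over all genes the interaction was positive for 694 and negative for 575, and with libraries scaled by total count 715 were positive and 345 negative. The count was 1958 without dark replicate 2 of the parent and 842 without light replicate 2 of the deletion strain. The negative ones alone numbered 354 and 374 without light replicates 1 and 3 of the parent, and 361 and 379 without light replicates 1 and 2 of the deletion strain.

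In the longest run, 7 of the 8 genes tested without tmk3 fell there (median log2 fold change -3.23), and the interaction was called for 4 of the 11. From TrG0122W to TrG0135W, 8 of 10 fell without tmk3 and TrG0122W, singled out after its values were seen, rose. The median of this run was -4.41 without tmk3, against -2.58 in the parent. The interaction was called for 4 of the 10, with the larger fall in the parent for TrG0122W and without tmk3 for the others. The log2 fold change of TrG0122W was -5.21 in the parent (edgeR adjusted p = 0.0111) and 0.74 without tmk3 (edgeR adjusted p = 0.0284), with an interaction of -5.96 (edgeR adjusted p = 0.00556). Its fall in the parent was -4.07 without dark replicate 2, and its call was lost without light replicate 1 or 3, at edgeR adjusted p of 0.055 and 0.0529. From TrC1159C to TrC1163C all 5 genes rose without tmk3, with a median of 4.49, against 2.24 in the parent. The interaction was called for 3 of these 5, all with the larger rise without tmk3. From TrD0612C to TrD0616W, 2 rose and 1 fell without tmk3, with a median of 0.12, and the interaction was called for 3. Over all 21 runs of falls, with 133 genes, 97 genes were tested without tmk3, of which 75 fell there and 2 rose. Among all genes that fell by at least 2-fold in the parent, 918 of 1135 tested without tmk3 (80.9%) fell there and 22 rose.

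**Figure D5:**
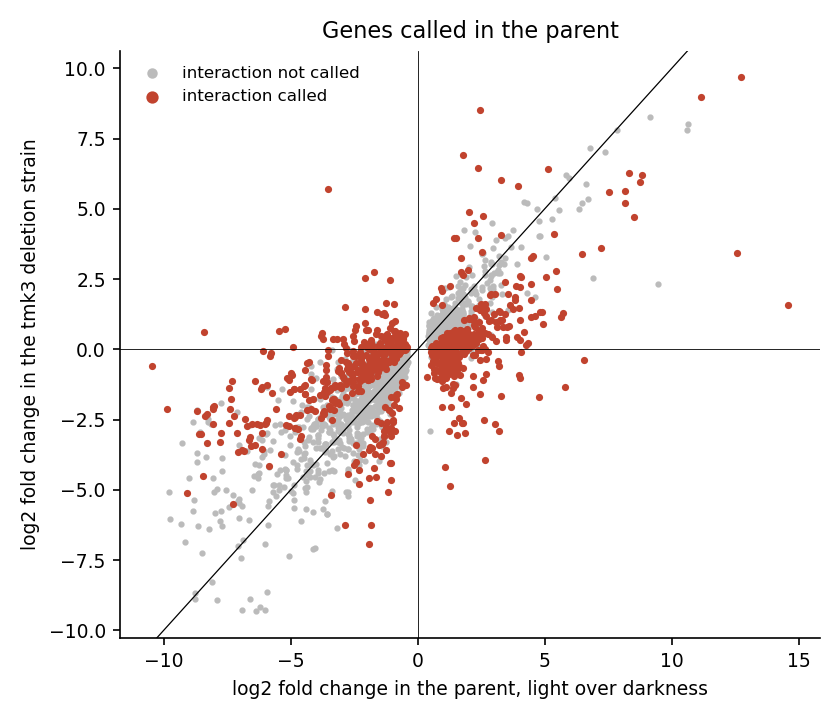
The log2 fold change of light over darkness in the tmk3 deletion strain (vertical axis) against that in the parent (horizontal axis) for genes called in the parent, with the line of equal values; red points have a called interaction. Most red points lie nearer to 0 on the vertical axis than on the horizontal axis, and genes not tested in the deletion strain are not drawn.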

How the data were processed

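The authors deposited raw read counts, 1 column for each of 12 samples. The read aligner HISAT2 2.2.1 is listed, with no settings, in the submitters' processing notes, and a stranded library kit with removal of ribosomal RNA was used per the labels' protocols. The table's title names featureCounts. Its version is not given in the sources used here, nor is the treatment of strand or any filter, so counts of near-identical and overlapping genes are uncertain. Columns were matched to samples by name, leaving 0 unused.

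The analysis used edgeR 4.0.16 in R 4.3.3. The 6 parent libraries were fitted alone, after filterByExpr and TMM scaling, with 1 mean per group and edgeR's quasi-likelihood F test. Calls were made at an adjusted p below 0.05 (Benjamini-Hochberg). Fold changes are log2, light over darkness, and the value given as SE is its absolute size over the root of F, which is unreliable where a group holds few counts. CPM values use TMM-scaled library sizes. The interaction used all 12 libraries. DESeq2 1.42.0 and limma 3.58.1 were alternatives. Tests of single values were exact permutation tests in SciPy 1.17.1.

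The identifiers named are those 2 that rose and 2 that fell with the widest gap between libraries (mean log2 CPM of at least 5, called also without dark replicate 2), the rows with gene names, the gene with the largest share of counts in each condition and the edges of the longest runs. The text says which others were singled out later. The comparison, the lists and these rules were chosen with earlier results of these data known. Lists of light-response, cellulase, sorbicillin, mating and kinase genes could not be applied, since the reference table's 9116 entries matched 0 identifiers.

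Simulated data had 8548 genes, 200 of them changed, and for each gene the same fitted spread in light and darkness. There 9% of 2-fold and 77% of 4-fold changes were recovered, with 5 false among 91 calls. In the data the spread was wider in darkness and far more genes were called, so these rates do not carry over to the calls above. Floors are 3 counts and cover counting error only.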

Additional observations from a re-analysis of the deposited data

Results flagged for a closer look

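The interaction was called for 9 of the gene models named by rule or singled out (edgeR, log2, parent minus deletion strain). There were 3 libraries in each of 4 groups. It was not called for TrC1166C, TrE0671C, TrC1159C, TrC1163C, TrD0616W and TrB0705C. Over all genes tested it was called for 14.1%. These models were picked by their values in the parent, whose libraries also enter the interaction, so the 9 calls are a description. For TrE0391W the interaction was 3.06 (edgeR adjusted p = 0.035) and for TrD1022C it was 2.17 (edgeR adjusted p = 0.016), both of which rose in both strains. TrD0360W had -3.97 (edgeR adjusted p = 0.00373), TrE0659C had -3.46 (edgeR adjusted p = 0.0374) and TrE0662C had -4.98 (edgeR adjusted p = 0.0337), all of which fell in both strains and by more in the parent. TrD0612C had 2.196 (edgeR adjusted p = 0.0018), with a rise in the parent and a log2 fold change of -0.70 without tmk3. TrC1130C had -2.21 (edgeR adjusted p = 0.0224), with a rise of 1.43 without tmk3 and no call in the parent. TrG0122W had -5.96 (edgeR adjusted p = 0.00556), with a fall in the parent and a rise without tmk3. For TrC1533C, with 0 counts in the dark parent, the model gave 12.97 (edgeR adjusted p = 0.00714), whose size follows from the prior count and is no measured size.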

How the results depend on the processing

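The number of genes called in the parent was 2957, and leaving out single libraries gave between 1730 (without light replicate 3) and 3816 (without dark replicate 2). For rises the range was 722 to 1700 and for falls 1008 to 2116. With limma voom and library weights 5079 were called, 2468 higher and 2611 lower. At 2-fold or more the count of 2041 moved between 1556 and 2313, with rises between 599 and 838 and falls between 951 and 1475. Tested against a 2-fold change it was 1132, with 341 rises and 791 falls. Size factors by RLE, total counts, no filter, a filter of at least 50 counts in 3 libraries, DESeq2 and a fit of all 12 libraries kept the count of calls within 1.5 times. Scaling by total count moved the median over all genes by 0.14 on the log2 scale. Without dark replicate 2, the filter of 50 counts gave 1435 genes of at least 2-fold. The interaction ranged from 842 to 1958 over single libraries, from 463 to 1058 where the parent was higher and from 354 to 900 where it was lower. Where it was lower, total counts gave 345 and DESeq2 886. Genes seen in darkness alone numbered 19 to 42 over the libraries left out, settings chosen after seeing the data. The log2 fold changes of the gene models named by rule or singled out kept their sign in every alternative run. DESeq2 gave no adjusted p for TrE0671C, and the stricter filter left out TrC1159C.

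With the replicate number as a block 2371 genes were called, and 958 for the interaction. The deviations of same-numbered light and dark libraries from their group means correlated at -0.0551, 0.0986 and 0.115. Light replicates 2 and 3 correlated best with their own number and light replicate 1 did not. Deviations within a group are tied to each other, so these values cannot decide whether same-numbered libraries were paired. The labels do not say that they were.

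Depth limits the genes at 0: with 3 libraries a group, fold changes against 0 counts are bounds, and 2331 gene models had too few counts to test.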
